A study of Mus musculus with 6 samples.

Results

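The genes described here are 10 transcription factors and feedback targets of the ATF4-CHOP arm of the integrated stress response: Atf4, Ddit3, Atf3, Atf5, Cebpb, Cebpg, Trib3, Chac1, Nupr1 and Sesn2. They were chosen by symbol from the 54532 rows of the gene count table, and all 10 symbols were found. Bulk RNA-seq gave their mRNA levels in 6 libraries with the label NIT-1, an insulinoma-derived mouse line that serves as a beta-cell model. The EV_Tm group (3 libraries) was pretreated for 16 h with hucMSC-EVs, vesicles shed by mesenchymal stem cells of the human umbilical cord, and the PBS_Tm group (3 libraries) was pretreated with PBS for the same 16 h. Both groups then had 8 h of Tm, read here as tunicamycin, which blocks N-linked glycosylation and so stresses the endoplasmic reticulum (ER). A treatment label calls the PBS_Tm samples untreated, whereas the titles and the design text put them under ER stress. The titles and the design text were followed, so every library is taken here to have received Tm. On that reading the comparison is of vesicle with PBS pretreatment of stressed cells.

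In the integrated stress response, kinases such as PERK at the ER phosphorylate the translation factor eIF2, which lowers protein synthesis as a whole while the ATF4 protein is made from its mRNA more efficiently. ATF4 then raises transcription of CHOP (the product of Ddit3) and, often as a dimer with a C/EBP protein, of genes for amino acid supply, glutathione breakdown and feedback on the response itself. Upstream reading frames in the Atf4, Atf5 and Ddit3 mRNAs place much of the control of these factors at translation, so gene counts report the mRNA and not the protein.

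The libraries held between 28654248 and 32550268 counts. Of the 10 genes, 9 had enough counts to be tested, and Atf3 did not. All 15 markers fixed for beta cells were too low to be tested, 9 of them with a count of 0 in every library, Ins2, Iapp and Pdx1 included, and their summed level was 0.195 to 0.496 CPM (counts scaled to library size) in PBS_Tm and 0.283 to 1.29 in EV_Tm. The defining markers of the labelled cell type were thus at or near 0 in both groups. The summed level of 9 fibroblast markers was 25.4 to 27.8 CPM in PBS_Tm and 19.9 to 22.3 in EV_Tm, that of 6 macrophage markers 2.73 to 4.40 and 4.88 to 6.74 CPM, and that of 5 epithelial markers 0.341 to 0.829 and 0.378 to 0.455 CPM. For 8 markers of other pancreatic cells, of which only Cela1 and Sox9 could be tested, it was 84.7 to 92.7 and 113 to 116 CPM. Cd68 was the only macrophage marker with enough counts to be tested. Of the 5 fibroblast markers tested, 2 fell and 1 rose, where 24.7% of all tested genes were called lower and 22.6% higher. Pdgfrb was 2.91-fold lower and Col3a1 1.74-fold higher in EV_Tm. Both were low, with means of 6.64 and 2.28 CPM for Pdgfrb and 3.60 and 6.25 CPM for Col3a1 in PBS_Tm and EV_Tm. The part of all these markers in the results was not tested. Fewer cells of a type and less RNA per cell cannot be told apart in such bulk libraries. Separate cultures for the 3 samples of a group are not stated in the labels, and the p-values therefore reflect the spread among these samples alone, which can be technical.

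All 9 tested genes were lower in EV_Tm than in PBS_Tm, none was higher, and for each of the 9 the PBS_Tm values all lay above the EV_Tm values. Among all 16844 genes tested, 47.4% were called in either direction and 24.7% were called lower by the same rule (edgeR quasi-likelihood test, Benjamini-Hochberg adjusted p under 0.05) and 27.9% were lower with groups that did not overlap. The sizes differed widely, from 1.34-fold for Cebpb to 7.49-fold for Ddit3. Of the 9 genes 5 were at least 2-fold lower, which held for 2.69% of all tested genes. The median log2 fold change was -1.13 over the 9 genes and 0.01 over all tested genes.

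Atf4 (chromosome 15, 80255184 to 80257541, with all positions on GRCm38), the central transcription factor of the response, was at 419, 423 and 411 CPM in the 3 PBS_Tm libraries and at 230, 239 and 237 CPM in the 3 EV_Tm libraries. The values within each group lay close together, with a coefficient of variation of 1.42% in PBS_Tm and 1.95% in EV_Tm. The level was 1.78-fold lower in EV_Tm (log2 fold change -0.83 ± 0.04, SE, edgeR adjusted p = 4.28e-15). Atf5 (chromosome 7, 44812256 to 44816658), a relative of ATF4 that is also translated preferentially under stress, was at 246, 233 and 204 CPM in PBS_Tm and at 125, 130 and 129 CPM in EV_Tm. Its PBS_Tm libraries were more spread (9.32%) than its EV_Tm libraries (2.08%), yet the lowest PBS_Tm library lay well above the highest EV_Tm library. It was 1.78-fold lower (-0.83 ± 0.05, SE, edgeR adjusted p = 2.08e-12), the same fold as Atf4. Atf5 shares 82 exonic bases, 4.11% of its exonic length, with each of Nup62 and Il4i1 on the other strand.

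Ddit3 (chromosome 10, 127290774 to 127296288) encodes CHOP, a C/EBP-related factor that forms dimers with C/EBP proteins and promotes cell death under lasting ER stress. It was at 304, 303 and 296 CPM in PBS_Tm and at 39.5, 39.5 and 41.5 CPM in EV_Tm. Every PBS_Tm library was high and every EV_Tm library low, with little spread in either group. The log2 fold change was -2.91 ± 0.05 (SE, edgeR adjusted p = 1.01e-24), and 26 of the 16844 tested genes had a lower one. A further row with the same symbol, 105 bases long and lying wholly within the exons of Ddit3, had 0 counts in all 6 libraries. It covers 6.13% of the exonic bases of Ddit3, and whether reads there were dropped as ambiguous is not given in the sources used here. The gene also shares 68 exonic bases with Mars on the other strand.

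Both C/EBP factors fell less than Ddit3. Cebpg (chromosome 7, 35046422 to 35056573), a short C/EBP protein that pairs with ATF4, was at 193, 200 and 196 CPM in PBS_Tm and at 96.0, 88.4 and 85.3 CPM in EV_Tm, with all EV_Tm libraries below all PBS_Tm libraries. It was 2.18-fold lower (log2 fold change -1.13 ± 0.05, SE, edgeR adjusted p = 8.46e-16). Cebpb (chromosome 2, 167688915 to 167690418), a factor of inflammation and metabolism that also pairs with CHOP, was at 77.4, 71.5 and 61.4 CPM in PBS_Tm and at 46.2, 52.0 and 58.6 CPM in EV_Tm. The groups came close to each other, the lowest PBS_Tm library lying just above the highest EV_Tm library. It was 1.34-fold lower (-0.42 ± 0.08, SE, edgeR adjusted p = 7.13e-05), and 2607 tested genes had a lower log2 fold change. Cebpb shares 312 exonic bases, 20.7% of its exonic length, with Tmem189 on the other strand, so its count is uncertain where strand was not used.

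**Figure D1:**
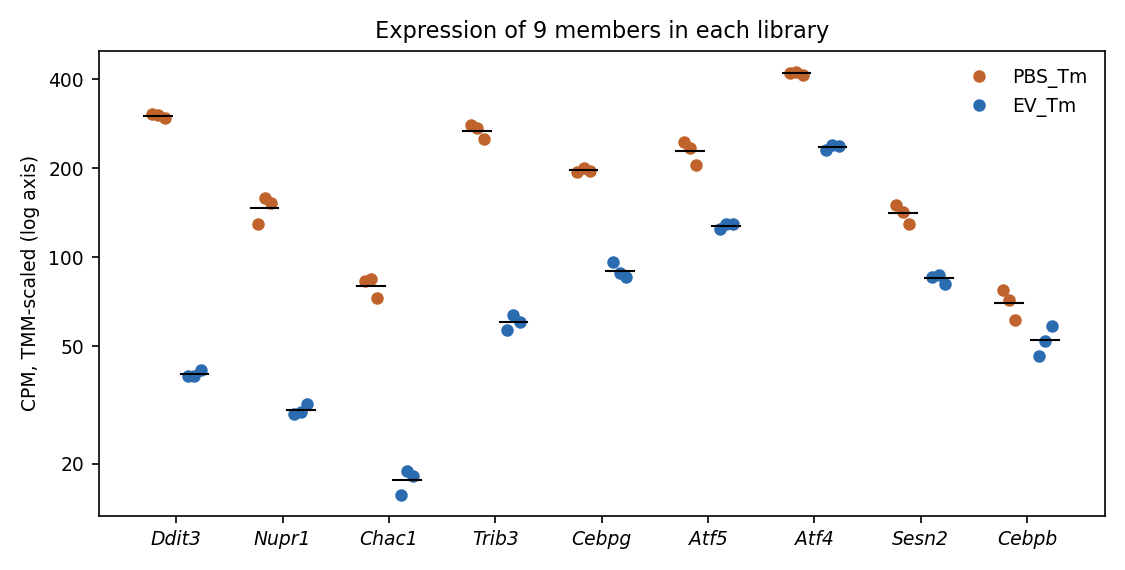
TMM-scaled CPM (log axis) of the 9 tested genes in each of the 6 libraries, ordered by log2 fold change, with each point a library and each black line the mean of 3. Ddit3 shows the widest gap, with means of 301 and 40.2 CPM, and Cebpb the narrowest, with means of 70.1 and 52.2 CPM.

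Among the effector and feedback genes, 3 fell by over 4-fold and 1 by less than 2-fold. Trib3 (chromosome 2, 152337422 to 152344032) encodes a pseudokinase that is induced by ATF4 and CHOP and in turn restrains ATF4. It was at 279, 273 and 250 CPM in PBS_Tm and at 56.8, 63.6 and 60.5 CPM in EV_Tm, so every PBS_Tm library was far above the EV_Tm libraries. It was 4.44-fold lower (log2 fold change -2.15 ± 0.05, SE, edgeR adjusted p = 9.58e-21). Chac1 (chromosome 2, 119351229 to 119354381), an enzyme that breaks down glutathione in the cytosol, was at 83.0, 84.0 and 72.9 CPM in PBS_Tm and at 15.7, 19.0 and 18.2 CPM in EV_Tm. All EV_Tm libraries were low, and the fall was of much the same size as that of Trib3, at 4.54-fold (-2.18 ± 0.07, SE, edgeR adjusted p = 1.13e-17).

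Nupr1 (chromosome 7, 126623249 to 126630861), a small stress-induced chromatin protein, was at 130, 158 and 153 CPM in PBS_Tm and at 29.4, 29.8 and 31.8 CPM in EV_Tm. PBS_Tm replicate 1 was the lowest of its group and still lay above every EV_Tm library. The fall was 4.84-fold (log2 fold change -2.28 ± 0.07, SE, edgeR adjusted p = 3.21e-19). Sesn2 (chromosome 4, 132492032 to 132510501), a leucine sensor that holds back mTORC1, was at 150, 143 and 130 CPM in PBS_Tm and at 85.6, 87.3 and 81.4 CPM in EV_Tm. The groups lay apart, but the gap was the second smallest of the 9 genes, at 1.66-fold (-0.73 ± 0.05, SE, edgeR adjusted p = 1.96e-11).

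**Figure D2:**
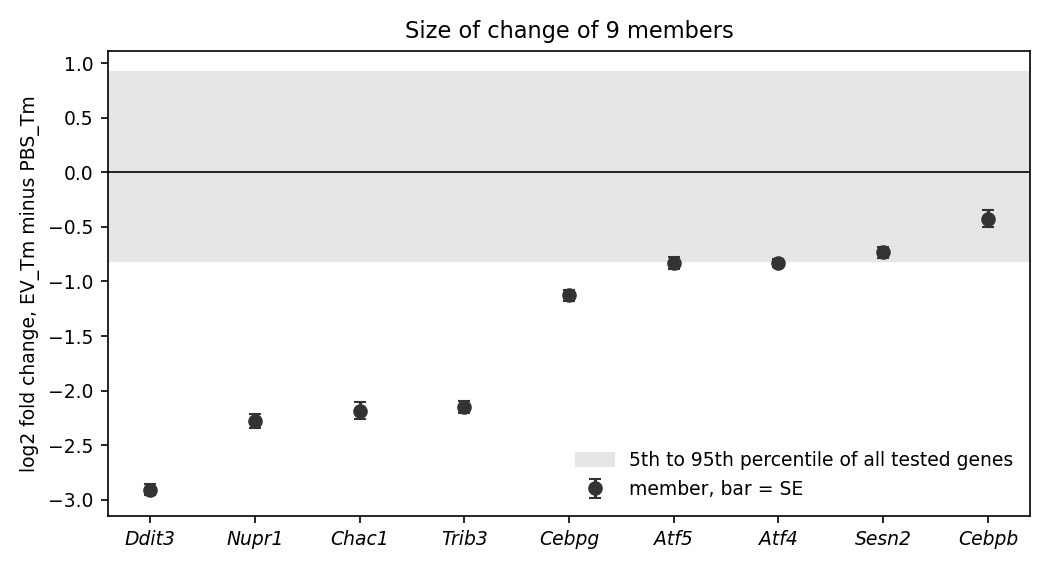
Fitted log2 fold change (EV_Tm minus PBS_Tm) of the 9 tested genes with SE bars, beside a grey band from the 5th to the 95th percentile of all 16844 tested genes (-0.81 to 0.92). Ddit3, Nupr1, Chac1 and Trib3 lie far below the band, Cebpg lies below it, Atf5 and Atf4 lie at its lower edge, and Sesn2 and Cebpb lie inside it.

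Atf3 (chromosome 1, 191170296 to 191218039), a repressor of the same family that other cells induce strongly under ER stress and amino acid shortage, was almost without counts. It had 2 counts in PBS_Tm replicate 1 and 0 in each of the other 5 libraries. With a count of 0, up to 3 counts remain possible, which is 0.0922 to 0.105 CPM in these libraries and reflects counting error only. No fold change can be given, and a difference between the groups was not detectable at this depth. Of the 10 protein-coding genes within 200 kb of Atf3, 7 had more than 3 counts in every library, a window and set chosen after the Atf3 counts were seen. The nearest of the 7 was Batf3, a related factor 61.4 kb away, with 46 to 102 counts per library. Fam71a, nearer at 5.5 kb, had 0 counts in every library. No other gene in the table has exons that overlap those of Atf3.

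Promoter windows (RefSeq, GRCm38.p6, 250 bases before to 50 bases after a start site) were available for all 10 genes, 11 windows in all. They were searched on both strands for the composite C/EBP-ATF motif TGATGNAA, at which ATF4 with a C/EBP partner is known to bind. A match was present in 4 of the 10 genes, which were Chac1, Nupr1, Trib3 and Atf3, and in 3.97% of all 32851 windows. The matches of Chac1, Nupr1 and Atf3 read the same and lie upstream of the start site, by 193 bases in Chac1 and by 110 bases in both Nupr1 and Atf3. In Trib3 the match lies from 15 to 22 bases after the start site. These 3 upstream sequences are shown because they put the same element beside mRNA levels that differ widely, from 2 counts in all for Atf3 to at least 2345 counts per PBS_Tm library for Chac1 and 4125 for Nupr1. Ddit3, which had the largest fall, is added as a window without a match. Each runs 5′ to 3′ on the strand of its gene, with the match, read on the opposite strand of the motif, in capitals. The positions are chr2:119350992-119351241 (plus strand) for Chac1, chr7:126625471-126625720 (minus strand) for Nupr1, chr1:191183334-191183583 (minus strand) for Atf3 and chr10:127290543-127290792 (plus strand) for Ddit3.
Chac1: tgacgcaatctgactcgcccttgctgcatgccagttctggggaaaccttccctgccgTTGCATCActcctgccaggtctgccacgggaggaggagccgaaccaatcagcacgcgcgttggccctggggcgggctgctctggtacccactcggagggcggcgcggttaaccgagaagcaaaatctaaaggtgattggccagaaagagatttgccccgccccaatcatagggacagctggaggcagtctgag
Nupr1: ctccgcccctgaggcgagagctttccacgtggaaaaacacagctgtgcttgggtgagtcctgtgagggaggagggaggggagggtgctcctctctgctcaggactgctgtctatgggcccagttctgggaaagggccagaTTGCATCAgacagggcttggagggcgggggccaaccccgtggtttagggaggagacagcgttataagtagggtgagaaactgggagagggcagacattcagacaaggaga
Atf3: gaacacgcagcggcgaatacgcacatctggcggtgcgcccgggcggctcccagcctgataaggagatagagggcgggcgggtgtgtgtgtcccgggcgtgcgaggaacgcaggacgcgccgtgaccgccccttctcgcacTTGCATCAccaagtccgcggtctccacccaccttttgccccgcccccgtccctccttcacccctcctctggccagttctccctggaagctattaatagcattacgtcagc
Ddit3: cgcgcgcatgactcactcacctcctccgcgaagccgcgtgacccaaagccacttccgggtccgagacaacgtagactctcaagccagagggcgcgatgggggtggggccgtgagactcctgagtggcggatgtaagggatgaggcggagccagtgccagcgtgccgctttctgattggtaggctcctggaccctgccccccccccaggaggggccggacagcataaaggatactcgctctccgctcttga
For Trib3 only the 30 bases around its match are shown, which lie on the minus strand of chromosome 2.
Trib3: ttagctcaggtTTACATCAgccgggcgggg
A match is only a description of these letters, and its absence from the windows of Atf4, Atf5, Cebpb, Cebpg, Sesn2 and Ddit3 concerns these 300 bases alone. None of the 11 windows held the cyclic AMP response element TGACGTCA, the ER stress elements ERSE and ERSE-II, or the UPRE core TGACGTG, which were found in 1.79%, 0.119%, 0.0365% and 2.01% of all windows.

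To compare the sizes of change free of scaling between libraries, each gene was set against Atf4 within the same library, as the log2 ratio of their CPM. These ratios are not scaled to gene length, so only their difference between groups is read. The ratio of Ddit3 to Atf4 was 0.726, 0.715 and 0.720 in PBS_Tm and 0.172, 0.166 and 0.175 in EV_Tm. The EV_Tm ratio was thus 4.21 times smaller (difference of log2 ratios -2.07 ± 0.02, SE, n = 3 each), with the groups far apart. The difference of log2 ratios was -1.44 ± 0.09 (SE) for Nupr1, -1.35 ± 0.08 for Chac1, -1.32 ± 0.05 for Trib3 and -0.30 ± 0.07 for Cebpg. For each of these the groups did not overlap. For Cebpb, whose own fall was the smallest, the difference was 0.41 ± 0.12 (SE) and the groups lay apart. For Atf5 and Sesn2 it was 0.00 ± 0.07 and 0.10 ± 0.06 (SE), and the groups overlapped. Because Atf4 itself fell, a gene with no change of its own would also shift upward in this ratio. The share of all tested genes whose ratios to Atf4 lay apart was not counted. In an exact two-sided permutation test over the 6 libraries, p was 0.10 for Ddit3, Nupr1, Chac1, Trib3, Cebpg and Cebpb, the smallest that 3 against 3 can give, with 0.133 after adjustment over the 8 pairs. For Sesn2 the exact p was 0.20 (adjusted 0.229) and for Atf5 it was 1. No pair could therefore pass a threshold of 0.05.

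**Figure D3:**
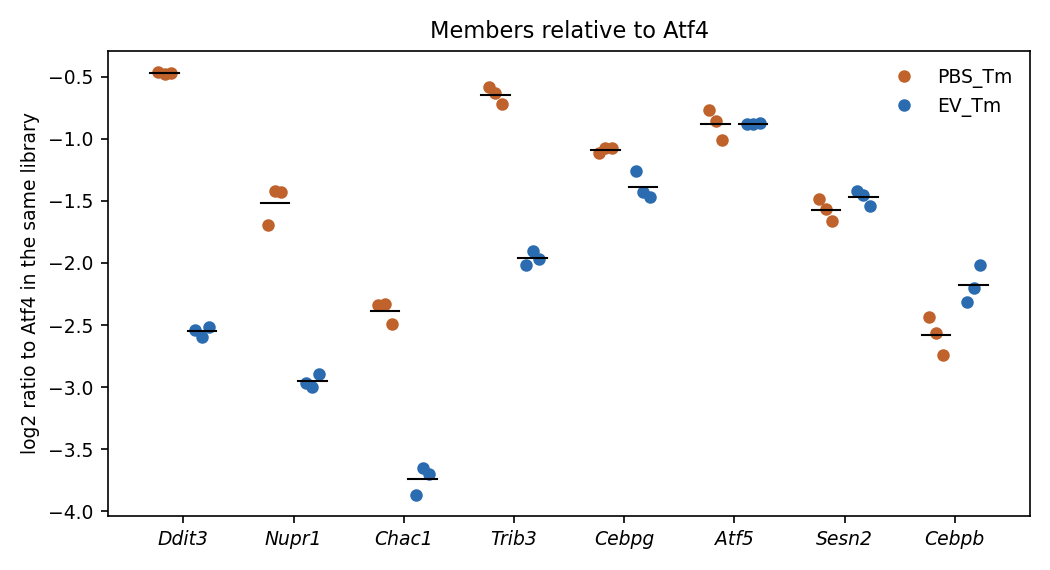
The log2 ratio of each gene's CPM to that of Atf4 in the same library (vertical axis), with 3 points per group and a black line at the mean. The ratio of Ddit3 goes from a mean of -0.47 in PBS_Tm to -2.55 in EV_Tm, while the points of Atf5 overlap between the groups at means of -0.88 and -0.88.

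Levels of different genes are compared per length, in CPM per kilobase of the deposited gene length. In PBS_Tm, Atf4 (177 ± 3, SD, n = 3) and Ddit3 (176 ± 3) stood at the top and did not differ beyond their spread. Trib3 (126 ± 7) and Atf5 (114 ± 11) came next, also with ranges that overlapped. Below them were Nupr1 (58.4 ± 6.0), Chac1 (48.9 ± 3.7), Cebpb (46.6 ± 5.4), Sesn2 (40.5 ± 2.9) and Cebpg (34.9 ± 0.6), where Chac1 overlapped with Cebpb and Cebpb with Sesn2. In EV_Tm the order was another. Atf4 (99.7 ± 1.9) was still the highest, followed by Atf5 (64.2 ± 1.3), Cebpb (34.7 ± 4.1), Trib3 (28.4 ± 1.6), Sesn2 (24.4 ± 0.9), Ddit3 (23.4 ± 0.7), Cebpg (16.0 ± 1.0), Nupr1 (12.1 ± 0.5) and Chac1 (10.8 ± 1.0). Of these neighbours only Sesn2 and Ddit3 overlapped. Ddit3 went from rank 2 to rank 6 and Cebpb from rank 7 to rank 3. Atf3 had at most 0.0288 CPM per kilobase, in PBS_Tm replicate 1.

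**Figure D4:**
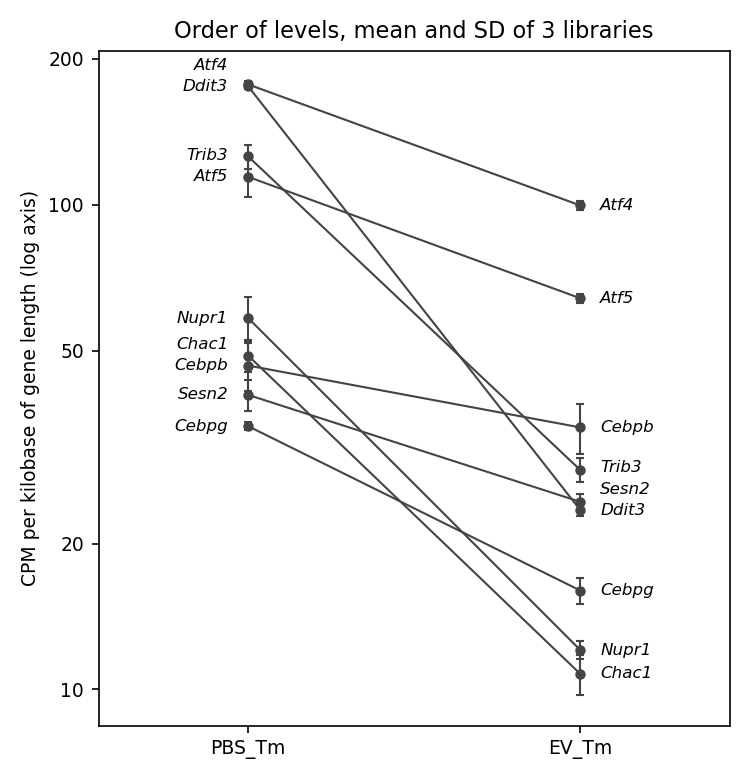
Mean level in CPM per kilobase of gene length (log axis) of the 9 tested genes in PBS_Tm and EV_Tm, with SD bars over 3 libraries and a line joining the means of each gene. The lines of Ddit3, Trib3, Nupr1 and Chac1 are the steepest, and Ddit3 drops from 176 to 23.4.

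The search for genes of like pattern took in only tested genes averaging 3 log2 CPM or more, predicted genes left out. Over the 6 libraries the log2 CPM of Rpn1, a subunit of the oligosaccharyltransferase, of Zbtb25, a zinc finger protein, and of Trib3 followed that of Atf4 most closely (Pearson r 0.9998, 0.9998 and 0.9996). Such values are a description, since r reached 0.95 for 1971 of the 16844 tested genes and rests mainly on the step between the groups. Among the 9 genes, Cebpb was the least like Atf4 (r = 0.855).

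Relatives of these genes did not move as one. The pseudokinase genes Trib1 and Trib2 rose in EV_Tm by log2 fold changes of 0.53 ± 0.08 and 0.32 ± 0.06 (SE; edgeR adjusted p = 1.38e-05 and 1.86e-04), while Trib3 fell. Trib1 was at 23.1, 27.3 and 21.5 CPM in PBS_Tm and 33.6, 37.1 and 32.7 CPM in EV_Tm, groups that lay apart. Sesn1, a sestrin known as a p53 target, rose by 0.33 ± 0.08 (SE, edgeR adjusted p = 0.00121), while Sesn2 fell and Sesn3 did not pass (-0.14 ± 0.06, edgeR adjusted p = 0.0525). Chac2, the constitutive relative of Chac1, was low, with 5.52 ± 0.05 CPM for PBS_Tm and 4.17 ± 0.72 CPM for EV_Tm (SD, n = 3 each), and only just passed (edgeR adjusted p = 0.0452). Ddit4, a stress-induced brake on mTORC1 listed with these genes, was 1.58-fold lower, and Nupr1l did not pass.

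The other leucine zipper (bZIP) factors also went both ways. Of 17 genes on the list of bZIP relatives 13 were tested (median log2 fold change -0.07). Jdp2, Atf1, Atf2 and Atf7 fell, Fos, Jun and Junb rose and 6 did not pass. Among all tested genes, 24.7% were called lower and 22.6% higher. Jdp2, a close relative of Atf3, was well expressed, at 106, 108 and 104 CPM in PBS_Tm and 38.0, 36.6 and 40.5 CPM in EV_Tm. It was 2.76-fold lower (edgeR adjusted p = 5.46e-17) in EV_Tm, and its groups lay apart. Jun, an AP-1 factor, was 2.09-fold higher and its relative Junb 2.21-fold higher. Of the 46 other genes that the deposited table assigns to the bZIP or C/EBP families, 37 were tested (median log2 fold change -0.16). Of these, 12 fell, 10 rose and 15 did not pass, not far from the shares of all tested genes. All 5 tested bZIP and C/EBP members, Atf4, Atf5, Ddit3, Cebpb and Cebpg, fell, but such a fall was not particular to them. Of the 12 others that fell, Xbp1 was 3.58-fold and Atf6 2.25-fold lower, more than Atf4, Atf5 and Cebpb.

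Upstream of ATF4, the genes for the eIF2 kinases changed by at most 1.46-fold. Eif2ak3, which encodes PERK, was at 129, 126 and 125 CPM in PBS_Tm and 85.5, 83.5 and 90.5 CPM in EV_Tm, 1.46-fold lower (edgeR adjusted p = 4.80e-10). Eif2ak2 fell by 0.20 ± 0.06 on the log2 scale, and Eif2ak1 and Eif2ak4 rose by 0.21 ± 0.07 and 0.12 ± 0.05 (SE, edgeR adjusted p = 0.00824, 0.0114 and 0.0476). The larger changes were in genes of feedback on the pathway. Ppp1r15a, the inducible subunit that directs the eIF2 phosphatase, was at 175, 163 and 157 CPM in PBS_Tm and 40.2, 32.8 and 38.7 CPM in EV_Tm, and its constitutive counterpart Ppp1r15b did not pass (log2 fold change 0.07 ± 0.04, SE, edgeR adjusted p = 0.148). Dnajc3, an ER co-chaperone first known as a kinase inhibitor, fell by 2.97 ± 0.04 on the log2 scale, close to the fall of Ddit3. Of these 8 upstream genes 5 fell, 2 rose and 1 did not pass, where 24.7% of all tested genes were called lower and 22.6% higher.

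Most of the other known targets of ATF4 and CHOP were lower as well. Their list also holds Ppp1r15a, Jdp2 and Ddit4, already described above among upstream genes or relatives. Of the 46 targets on the list 45 were tested and 41 fell (median log2 fold change -0.76). Ero1l and Vldlr rose, and neither Bcl2l11 nor Vegfa passed. Among all tested genes, 24.7% were called lower and 22.6% higher. Stc2 had 0 counts in every library. At least 2-fold lower were 13 of the 45, against 2.69% of all tested genes. The largest falls were in Fgf21, a stress hormone, with 31, 26 and 34 counts in PBS_Tm and 0, 8 and 6 in EV_Tm, in Ppp1r15a (4.41-fold), in Gadd45a, a growth arrest gene (4.03-fold), and in Slc7a3, a transporter of cationic amino acids (2.81-fold). A log2 fold change lower than that of Atf4 was seen in 18 of the 45 targets, and one lower than that of Ddit3 in 0. Asns, the asparagine synthetase gene that is a standard readout of ATF4, fell by 0.83 ± 0.04 on the log2 scale (SE), a gene named after its value was seen. Ero1l, an ER oxidase described as a CHOP target, went the other way, at 328, 339 and 354 CPM in PBS_Tm and 521, 495 and 508 CPM in EV_Tm. All EV_Tm libraries were above all PBS_Tm libraries, by 1.49-fold (edgeR adjusted p = 7.21e-12). Vldlr, a lipoprotein receptor, was 1.51-fold higher.

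**Figure D5:**
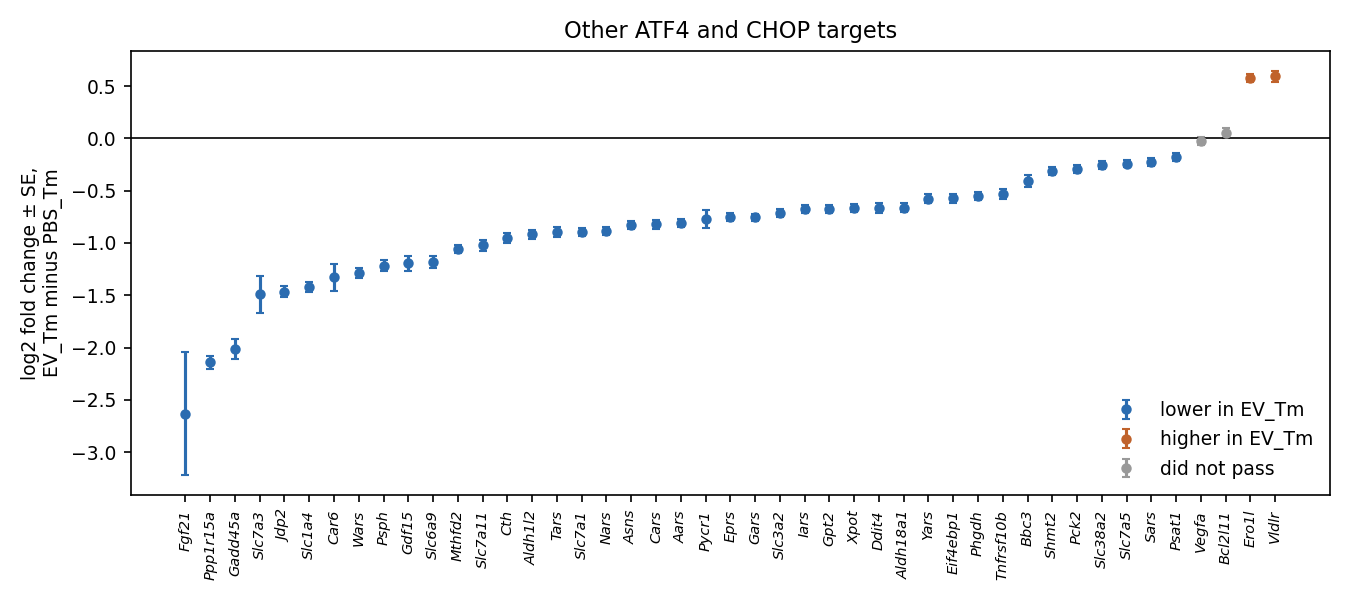
Log2 fold change (EV_Tm minus PBS_Tm) with SE bars of the 45 tested targets of ATF4 and CHOP other than the 10 genes, in rising order and coloured by the edgeR call. The points run from -2.63 for Fgf21 to 0.59 for Vldlr, with 41 called lower and 2 called higher.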

How the data were processed

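RNA was measured in 6 libraries, grouped by their titles. Reads were trimmed of adaptors and aligned with HISAT2 2.2.1 per the labels' protocols. The submitters' processing notes list featureCounts 2.0.6. The deposited table holds raw counts per gene, without normalization. It also holds other deposited values, the start, end and length of each gene. The processing notes name mm39, but start and end of 98.33% of 54495 shared gene IDs, and of all 10 genes described here, equal those of GENCODE M21 (GRCm38). How strand and multi-mapping reads were handled is not given in the sources used here.

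EV_Tm was compared with PBS_Tm in edgeR 4.0.16 (R 4.3.3) with TMM factors, filterByExpr, the two-sided quasi-likelihood test and adjustment over 16844 genes. The common biological coefficient of variation was 6.05%. CPM values of tested genes use TMM-scaled library sizes, and sums over markers and levels of Atf3 use plain ones. Ratios to Atf4 used a prior count of 2. Where a symbol had several rows, the one with most counts was taken. The mean chi-square per gene was 3.71 to 7.78 within groups, above sampling noise, and each library counted as a sample. The fit was tested on simulated data.

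The 10 genes and the lists were chosen with earlier results of these data known. All 10 genes are named. Tested genes of the lists of relatives and upstream genes could be named, and the rest are only counted. Of the other targets the rule names the 4 with the largest change and those that passed against the majority. Asns, Bcl2l11, Vegfa and Stc2 were named outside it, after their values were seen, as were Cd68, Pdgfrb and Col3a1 among the markers. So were Xbp1 and Atf6 among the other bZIP factors. Tried besides were scaling by DESeq2's size factors or by library size only, no filter or one of 1 CPM in 3 libraries, the tests of DESeq2 1.42.0 and of limma-voom (limma 3.58.1), a replicate block, the omission of single libraries, and thresholds of an adjusted p under 0.01 or a fold of 2.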

Additional observations from a re-analysis of the deposited data

How the results depend on the processing

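All 9 tested genes stayed lower and past the threshold under each of the 13 other normalizations, filters, tests and left-out libraries, with log2 fold changes from -0.52 to -0.35 for Cebpb, whose adjusted p rose to at most 0.00123, and from -2.93 to -2.87 for Ddit3. With the replicate number as a block the count was again 9 of 9, and that of the other targets 43 of 45. Of all 16844 tested genes, 7737 were called with the block and 7976 without it. Deviations of same-numbered libraries correlated by -0.04, 0.02 and -0.01, so no effect shared by replicate number was seen. With 3 libraries per group, these values cannot show whether same-numbered samples were set up together. A fold minimum of 2 left 5 of the 9 genes and 13 of the 43 called targets, because fewer genes can meet it. Among all tested genes it left 1006 of the 7976 called. The difference between groups in the log2 ratio of Atf5 to Atf4, near 0 and with no call, was -0.064 without PBS_Tm replicate 3 and stayed above 0 without each of the other 5 libraries, at most 0.056 (without PBS_Tm replicate 1). Without length scaling, Cebpb, Cebpg, Chac1, Nupr1 and Sesn2 changed places in the order of PBS_Tm levels. Atf3 had too few counts to be tested, and Fgf21 had at most 34 counts in a library.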
